A study of Mus musculus with 22 samples.

Results

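Mouse tumours that lack Smarcb1 (also called Snf5) and were labelled TATCre were compared with mouse tumours that carry the SS18-SSX fusion and whose titles state no source of Cre. The libraries were chosen by their titles and take 8 of the 22 in the series. Those of the first group are named N1, N49, N43L, N43R and N51, with genotype SNF5-/- (5 libraries, called Snf5-null here). Those of the second are named A, B and N2, with genotype SS18-SSX+/- (3 libraries, called SS18-SSX). All were total RNA of fresh frozen tumours of mice, with no age or treatment stated. The strain labels name C57BL followed by a number that differs for every library, and whether those numbers are true substrains could not be settled. TATCre is a Cre recombinase protein that can enter cells. The labels do not say where it was given or which cells it reached. N43L and N43R share a tag, and the labels do not state that any 2 libraries come from separate animals, so p-values here reflect sample-to-sample spread that may be technical in part. All Snf5-null libraries carry one number series in their descriptions and all SS18-SSX libraries another. Genotype, number series and the Cre label therefore cannot be told apart.

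SWI/SNF (BAF) complexes use ATP to move or evict nucleosomes and oppose Polycomb complexes, which keep developmental genes silent. Smarcb1 encodes a core subunit of the canonical BAF and PBAF forms, and its loss is the defining lesion of malignant rhabdoid tumours. SS18-SSX, the fusion oncoprotein of synovial sarcoma, enters BAF complexes through its SS18 part and is known to bring them to Polycomb-marked developmental genes. Both genotypes thus alter BAF complexes, by loss of a subunit in one and by gain of a fused subunit in the other.

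Total counts were 17138825 to 21807838 in Snf5-null and 8642648 to 16051501 in SS18-SSX libraries, with A the shallowest. The share of counts from mitochondrial genes was 3.39% ± 0.751 (SD, n = 5) against 1.14% ± 0.328 (n = 3; exact permutation test, two-sided, p = 0.0357, adjusted over 3 measures 0.0536). This is the smallest p that 5 against 3 libraries allow, and the total count gave the same p. Protein-coding genes held 79.2% of the counts in A, 85.4% in N1 and in N49, 86.3% in B and 89.92 to 93.65% in the rest. The part of depth, of the mitochondrial share and of the protein-coding share in the results was not tested. Over all tested genes the log2 levels of 2 Snf5-null libraries correlated at r = 0.861 to 0.98, highest for N43L with N43R, and those of 2 SS18-SSX libraries at 0.898 to 0.973. The range was 0.696 to 0.804 between the groups (correlations across genes, which are not independent replicates). Y-linked genes had 118 to 5595 counts in 4 Snf5-null libraries, 1 count in N51 and at most 2 in SS18-SSX libraries, so Y-linked reads moved with the groups, and their part in the results was not tested. Xist, the transcript of the inactive X, was at 594 CPM in N1, 720 in N49 and 43.1 in N43L, which thus held both Xist and Y-linked reads (118, 1205 and 5595 counts). The labels do not say whether a library holds tissue of more than 1 mouse. Libraries N1 and A stood apart within their groups, N1 in the mean of matrix and of early myogenic genes and A in muscle and lymphocyte genes, as given below.

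Of 17059 tested genes 3040 were higher and 3281 lower in Snf5-null than in SS18-SSX tumours (edgeR quasi-likelihood test, Benjamini-Hochberg adjusted p below 0.05). These are 17.8% and 19.2% of the tested genes and together 37.1%, the background against which each gene list below is read. By at least 1 log2 unit, 2436 were higher and 2656 lower, and the median log2 fold change over all tested genes was 0.02. The log2 levels of the groups did not overlap for 3334 genes that were higher in every Snf5-null library (19.5%) and 3617 that were lower in every one (21.2%). With N43L and N43R summed into 1 sample, 2448 genes were higher and 2591 lower. Without SS18-SSX library B, 1425 were higher and 2102 lower, and without N2, 2076 and 2675. Without Snf5-null N1 the counts were 3483 and 3725, and without SS18-SSX A 2932 and 3352. Values below are CPM (counts scaled to a library of 1000000), scaled to each library's normalised size, and differences are log2 fold changes, Snf5-null minus SS18-SSX, with the standard error (SE).

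**Figure D1:**
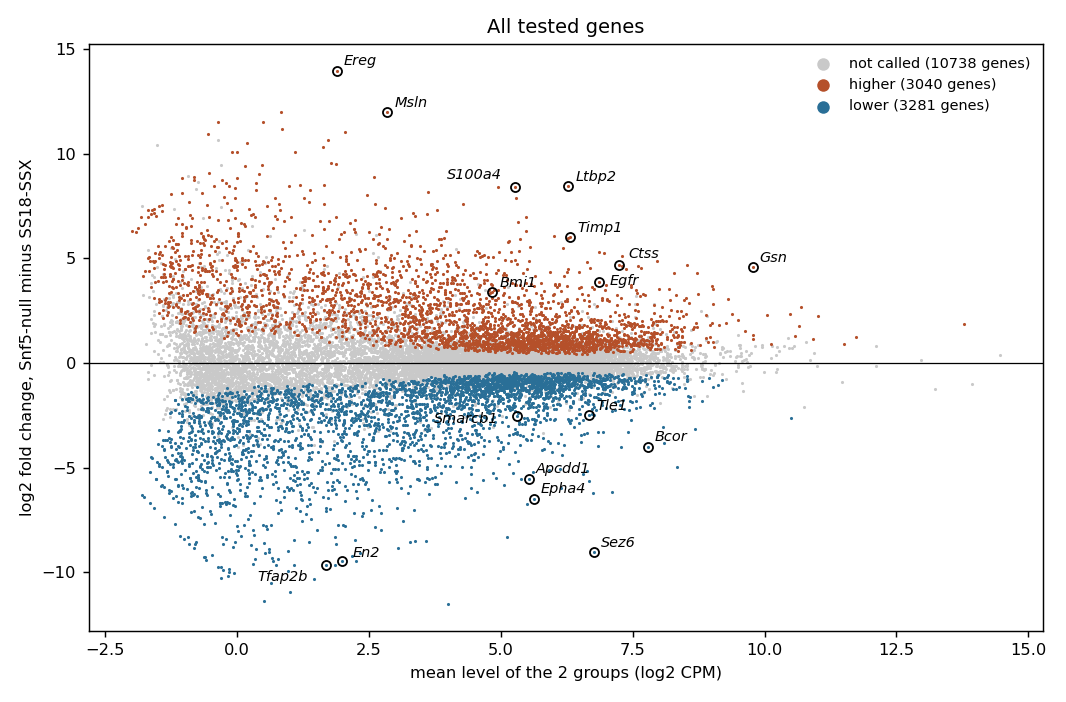
Each point is 1 of 17059 tested genes, placed by the mean level of the 2 groups (log2 CPM, horizontal) and the log2 fold change (vertical), with 3040 genes higher in Snf5-null tumours in orange, 3281 lower in blue and the rest in grey. The circled genes are described in the text. Ereg lies at the top left and Sez6 at the bottom, among genes of higher mean level.

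Smarcb1 (ENSMUSG00000000902, chromosome 10, 75896769 to 75921617, minus strand, GRCm38) was lower in every library labelled null. It was at 15.3 CPM in N1, 12.9 in N49, 16 in N43L, 26.3 in N43R and 13.4 in N51, against 95 in A, 111 in B and 84.2 in N2. The log2 fold change was -2.52 ± 0.26 (adjusted p = 0.000506), and the groups did not overlap. The deleted exons are not named in the labels, so transcripts of the remaining exons and of cells that keep the gene cannot be told apart. Ss18, the mouse counterpart of the gene that supplies the start of the fusion, was at 84.6 to 94.3 CPM in Snf5-null and at 75.2, 89.3 and 147 in SS18-SSX tumours (-0.21 ± 0.22, adjusted p = 0.481). Whether reads of the fusion were counted as Ss18 was not tested.

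Of 29 tested SWI/SNF subunit genes 11 were lower and 0 higher (37.9% lower, against 19.2% of all genes), with a median log2 fold change of -0.63. Smarcb1, deleted by design, is 1 of the 11. Without SS18-SSX library B 8 were lower. The complexes hold 1 of 2 ATPases. Smarca2 (BRM) was at 36.9, 69.7, 74.2, 84.9 and 72.2 CPM in N1, N49, N43L, N43R and N51 and at 227, 352 and 385 in A, B and N2 (-2.25 ± 0.29, adjusted p = 0.0011). Every Snf5-null library was below every SS18-SSX library. Smarca4 (BRG1) was at 144 to 244 CPM against 196 to 323 and did not pass the test (-0.48 ± 0.25, adjusted p = 0.162). It passed with A and N1 both left out, an alternative chosen after seeing the data.

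The largest falls among the subunits were in genes that mark neural or lymphoid BAF assemblies. Bcl11a, a zinc-finger subunit, was at 0.572, 3.86, 0.971, 1.39 and 1.58 CPM in the Snf5-null libraries (N1, N49, N43L, N43R, N51, the order used from here on) and at 62.7, 77.2 and 95 in A, B and N2. The difference was -5.55 ± 0.55 (adjusted p = 0.00047). Its paralog Bcl11b was at 2.43 to 6.72 CPM against 82.3 to 122 (-4.42 ± 0.34, adjusted p = 0.000164). Bcl11a was near the low end of the tested levels in Snf5-null tumours, with 149 counts in all, while Bcl11b had 447. Neither gene had overlapping groups. Dpf1, the PHD-finger subunit of neuronal BAF, was lower by -2.87 ± 0.49 (adjusted p = 0.00337) and its paralog Dpf3 by -3.05 ± 0.96 (adjusted p = 0.0361). Dpf3 had 62 counts in all Snf5-null libraries together. It lost its call without N49 (-3.14), N43R (-3.02), N51 (-2.83), B (-2.86) or N2 (-2.81). Dpf2, the widely expressed member, was lower by -0.88 ± 0.20 (adjusted p = 0.00961) and Smarcd1 (BAF60A) by -1.08 ± 0.22 (adjusted p = 0.00707). Subunits of noncanonical BAF, the form that lacks Smarcb1, fell too: Bicra by -1.71 ± 0.28 (adjusted p = 0.00298), Bicral by -1.26 ± 0.29 (adjusted p = 0.0108) and Brd9 by -0.69 ± 0.17 (adjusted p = 0.0142). Bicral (-1.20, adjusted p = 0.0508) and Brd9 (-0.58, adjusted p = 0.0628) lost the call without library B.

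**Figure D2:**
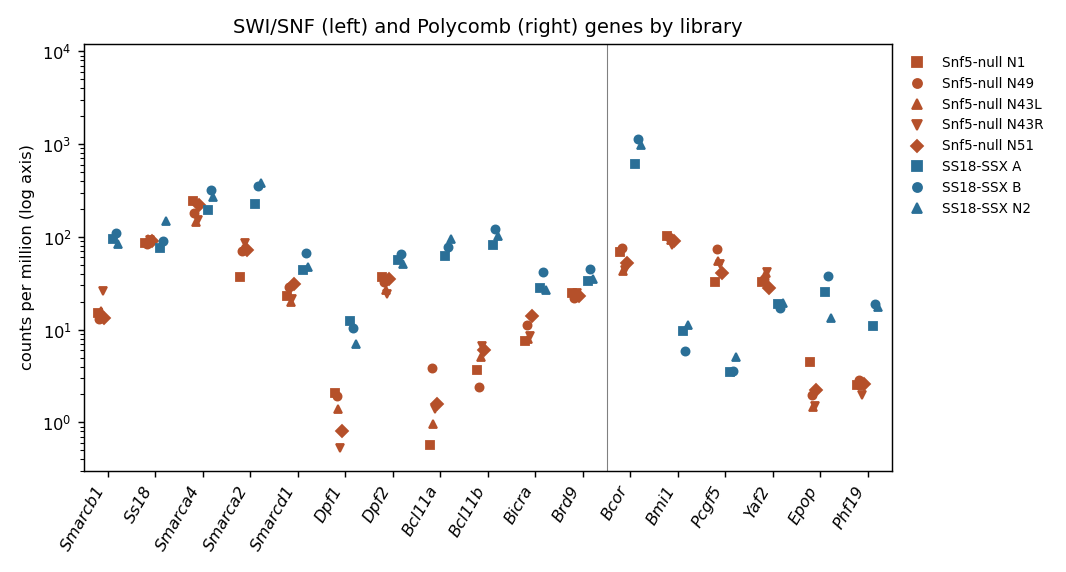
Level of SWI/SNF genes (left of the line) and Polycomb genes (right) in each library, in CPM on a log axis, with Snf5-null libraries in orange and SS18-SSX libraries in blue, 1 point for each library. Smarcb1, Smarca2, Bcl11a, Bcl11b and Bcor are lower in all 5 Snf5-null libraries, Bmi1 and Pcgf5 are higher in all 5, and Ss18 and Smarca4 overlap.

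Of 29 Polycomb subunit genes 14 were lower (48.3%) and 4 higher (13.8%), with a median of -0.47. Bcor (ENSMUSG00000040363, chromosome X, 12036740 to 12160355, minus strand), the scaffold of the variant complex PRC1.1, was at 69.4, 76.4, 42.6, 44.2 and 52.8 CPM against 608, 1133 and 979. That is a difference of -3.99 ± 0.31 (adjusted p = 0.000164). A was the lowest of the SS18-SSX libraries and still lay far above every Snf5-null library. Epop, a partner of PRC2, was lower by -3.44 ± 0.48 (adjusted p = 0.0015) and Phf19, a PRC2 subunit that reads histone marks, by -2.66 ± 0.30 (adjusted p = 0.000712).

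Bmi1 and Pcgf5, alternative partners of the RING1 ligases in PRC1, rose. Bmi1 (Pcgf4; ENSMUSG00000026739, chromosome 2, 18677018 to 18686629, plus strand) was at 102, 99.9, 92.1, 82.4 and 89.9 CPM in Snf5-null tumours and at 9.67, 5.9 and 11.3 in SS18-SSX tumours. Its difference was 3.38 ± 0.26 (adjusted p = 0.000164). Levels were narrow within the Snf5-null group and far from those of the other group. Pcgf5 was higher by 3.63 ± 0.34 (adjusted p = 0.000357), at 32.6 to 73.2 against 3.48 to 5.08 CPM, and the PRC1 subunit Yaf2 by 0.95 ± 0.20 (adjusted p = 0.00741).

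Of 20 genes associated with synovial sarcoma 9 were lower (45.0%) and 4 higher (20.0%), with a median of -1.05. The list was written with earlier results of these data known. Tle1 (ENSMUSG00000008305, chromosome 4, 72117142 to 72200919, minus strand), a corepressor used as a diagnostic stain and named here after its values were seen, was at 45.9, 46, 38.2, 43.2 and 42 CPM against 206, 274 and 254. The difference was -2.51 ± 0.16 (adjusted p = 9.66e-05), with little spread within either group. Zic2, a zinc-finger developmental factor, was lower by -7.00 ± 1.5 (adjusted p = 0.00807), the Wnt receptor Fzd10 by -5.55 ± 1.20 (adjusted p = 0.00841) and the ephrin Efnb3 by -5.51 ± 0.50 (adjusted p = 0.00033). In Zic2 the Snf5-null libraries N1 (1.03 CPM) and N49 (7.47) were above the other 3, which had at most 0.0539, while SS18-SSX libraries had 172 to 281.

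Egfr, the epidermal growth factor receptor, was among the 4 that rose, at 412, 518, 345, 448 and 607 CPM against 46.4, 18.3 and 30.4 (3.88 ± 0.39, adjusted p = 0.000456). The groups did not overlap. Meox2, a mesoderm homeobox gene, rose by 3.86 ± 1.01 (adjusted p = 0.0179) and lost its call without B (3.85, adjusted p = 0.0764) or N2 (3.73, adjusted p = 0.0731) and with limma-voom (3.15, adjusted p = 0.127). Crabp1, a retinoic acid binding protein, was at 278 CPM in N1 and 183 in N51 but at 2.68 in N49, 8.42 in N43L and 1.33 in N43R. SS18-SSX tumours had 0.79 to 1.42, a range that held N43R alone. Crabp1 was called higher (6.38 ± 2.09, adjusted p = 0.042). Its adjusted p was between 0.0542 and 0.131 without N1, N51, A, B or N2, and 0.341 with limma-voom.

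A list of 52 further transcription factors of development had 26 members that fell (50.0%) and 7 that rose (13.5%), with a median of -3.15, unchanged when Sox3, which had no count in Snf5-null tumours, was set to its bound. The list's mean level was 0.26 to 1.72 log2 CPM in Snf5-null and 4.12 to 4.31 in SS18-SSX libraries. Genes of the neural tube and midbrain were among those that fell. En2, a midbrain homeobox factor, was at 0.114, 0.124, 0.108, 0.107 and 0.0479 CPM against 61.6, 90.4 and 68.6 (-9.44 ± 0.30, adjusted p = 4.62e-06). The Snf5-null values come from 9 counts in all. Tfap2b, an AP-2 factor of neural crest, was at 0 to 0.16 CPM against 53.1, 56.9 and 65.1 (-9.65 ± 0.49, adjusted p = 5.65e-05). Lhx1, a LIM-homeobox factor, had 3 counts in all Snf5-null libraries and stood at 46.2, 63.2 and 45.5 CPM in SS18-SSX tumours (adjusted p = 9.66e-05). For these genes the Snf5-null level lay at or near the limit of detection in each library. Sox3 was at 9.35, 35 and 14.6 CPM in SS18-SSX tumours and had 0 counts in Snf5-null tumours (adjusted p = 0.00197). With the 3 SS18-SSX libraries pooled it was at least 652-fold higher than the floor of 3 counts over the pooled Snf5-null group. Sox1, a SOX factor of neural progenitors, was lower by -9.63 ± 1.01 (adjusted p = 0.000572) and the POU factor Pou3f3 by -9.48 ± 0.91 (adjusted p = 0.000429).

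Factors of limb and body-wall mesenchyme were among the 7 that rose. Tbx15 was at 25.2, 237, 216, 260 and 200 CPM against 34.8, 8.38 and 8.18 (3.46 ± 0.86, adjusted p = 0.0144), with N1 inside the SS18-SSX range. Tbx18 was at 1.89, 72, 46.5, 58.9 and 68.1 CPM against 0.543, 1.59 and 3.5 (4.67 ± 1.14, adjusted p = 0.0135), again with N1 inside that range. En1, a homeobox factor of the body wall and limb, was higher by 3.48 ± 0.68 (adjusted p = 0.00574) in all 5 libraries. The developing midbrain also uses En1, whose paralog En2 fell, so midbrain factors of the list moved in both directions. Without B, Tbx15 (3.12, adjusted p = 0.0687) and Tbx18 (4.54, adjusted p = 0.0659) lost the call, and Tbx15 also without N2 (3.11, adjusted p = 0.0607). Tbx18 lost it with limma-voom too (4.23, adjusted p = 0.157).

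Hox genes, which set position along the body axis, gave 6 higher (17.6%) and 0 lower of 34 tested, with a median of 0.25. Over all tested genes 17.8% were higher and 19.2% lower, so only the share higher was near the background. The 6 were of the Hoxa and Hoxd clusters. Hoxa9 was at 7.37, 27.4, 17.8, 14.1 and 11.9 CPM against 1.63, 2.13 and 5.08 (2.40 ± 0.56, adjusted p = 0.0115). It lost the call without B (2.19, adjusted p = 0.0603). Without A 4 Hox genes were higher and 3 lower, and the list's median was -0.26. Without B 0 were called (median 0.38), and DESeq2 called 8 higher and 3 lower. The list's mean level was -0.04 log2 CPM in A and 2.32 to 2.35 in B and N2.

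Of 18 Wnt targets and inhibitors 12 were lower (66.7%) and 4 higher (22.2%), with a median of -2.73. Apcdd1, a membrane inhibitor induced by the pathway, was at 5.49, 7.78, 6.1, 7.36 and 7.19 CPM against 272, 371 and 300 (-5.53 ± 0.20, adjusted p = 7.79e-06). The values were narrow in both groups. Lgr6, an R-spondin receptor, was lower by -5.97 ± 0.92 (adjusted p = 0.00231) and Nkd1, a feedback inhibitor, by -4.58 ± 0.80 (adjusted p = 0.00371). The secreted inhibitors Dkk2 (3.97 ± 0.53, adjusted p = 0.00129) and Dkk1 (5.90 ± 1.53, adjusted p = 0.0173) rose. Dkk1 was at 0.0571 CPM in N1 and at 3.68 to 10.5 in the other 4, with 0 to 0.169 in SS18-SSX tumours, and lost its call without B (5.68, adjusted p = 0.0788) and with limma-voom (4.78, adjusted p = 0.137). Ccnd2, a D-type cyclin that sits outside this list, was at 249, 834, 499, 688 and 780 CPM against 3480, 3827 and 4056 (-2.63 ± 0.39, adjusted p = 0.00187). Of 14 Fgf receptors and feedback genes 3 were lower and 1 higher (21.4% and 7.14%), near or below the background shares.

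Of 22 neural genes 8 were lower (36.4%) and 4 higher (18.2%), and of 27 axon guidance genes 13 were lower (48.1%) and 4 higher (14.8%). The medians were -0.86 and -1.92. Sez6 (ENSMUSG00000000632, chromosome 11, 77930800 to 77979048, plus strand), a neuronal membrane protein, was at 6.97, 11, 1.35, 4.54 and 7.57 CPM against 501, 5234 and 4274 (-9.05 ± 0.96, adjusted p = 0.00062). A held less than B and N2 but lay far above each Snf5-null library. Its relative Sez6l was lower by -8.51 ± 1.08 (adjusted p = 0.00108). Grin2c, an NMDA receptor subunit, was lower by -5.26 ± 1.62 (adjusted p = 0.0333), with N1 at 14.5 CPM and the other 4 at 0 to 1.18 against 40.3 to 196. Without N1 it moved to -8.52. It lost the call without N49 (-5.05), N43L (-4.95), N43R (-4.95), B (-4.79) or N2 (-5.27), and with N43L and N43R summed (-4.96, adjusted p = 0.0588). Snap25, a synaptic vesicle fusion protein, was higher (4.70 ± 1.18, adjusted p = 0.0155), though not without B (4.53, adjusted p = 0.0701) or N2 (4.23, adjusted p = 0.0618).

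Guidance receptors and their ligands moved in both directions. Epha4, an ephrin receptor, was at 2.52, 5.6, 6.58, 6.24 and 6.9 CPM against 239, 510 and 748 (-6.48 ± 0.47, adjusted p = 0.000142). Plxnb1, a semaphorin receptor, was lower by -4.91 ± 0.25 (adjusted p = 5.65e-05) and Slit1, a repulsive ligand, by -6.76 ± 1.01 (adjusted p = 0.002). Among the secreted semaphorins of the list, Sema3a was higher by 3.55 ± 0.50 (adjusted p = 0.00168) and Sema3d by 3.58 ± 0.82 (adjusted p = 0.0105). The others are not described here. Sema3a was at 269 to 720 CPM against 18.6 to 52.6, with no overlap.

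Of 17 tested epithelial genes 9 were lower (52.9%) and 1 higher (5.88%), with a median of -2.29. Esrp1, an epithelial splicing factor, was at 0 to 0.436 CPM against 17, 13.3 and 16.2 (-7.00 ± 0.87, adjusted p = 0.00102). Grhl2, an epithelial transcription factor, had 5 counts in all Snf5-null libraries and was at 35.3, 5.96 and 4.29 CPM in SS18-SSX tumours (-7.98 ± 1.17, adjusted p = 0.00186). Dsp, the desmosomal plaque protein, was lower by -5.71 ± 0.92 (adjusted p = 0.00274). The epithelial list's mean level was highest in A among SS18-SSX libraries, at 2.89 log2 CPM against 1.86 in B and 1.21 in N2. Its median was -1.14 without A and -1.20 without B.

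Among the single genes with the largest rises that had no overlap and at least 5 log2 CPM on average in Snf5-null tumours, Ereg (ENSMUSG00000029377, chromosome 5, 91074622 to 91093646, plus strand) came first. It encodes epiregulin, a ligand of the EGF receptor. It was at 125, 138, 83.9, 97.8 and 146 CPM and had 0 counts in the 3 SS18-SSX libraries (adjusted p = 8.81e-05). With libraries pooled in each group, that is at least 1727-fold higher than the floor of 3 counts over the SS18-SSX group. Msln, the surface protein mesothelin, was at 1369, 894, 30.9, 76.5 and 152 CPM against 0.217, 0.118 and 0.0564 (11.98 ± 2.0, adjusted p = 0.0031). Prkg2, a cGMP-dependent kinase, was at 18.4 to 181 CPM and had 2 counts in SS18-SSX tumours (adjusted p = 0.00077). Detection in these genes was near the limit in the SS18-SSX group and varied many-fold within the Snf5-null group, except for Ereg. Chil1, a chitinase-like protein, was higher by 11.04 ± 1.87 (adjusted p = 0.00329), with N1 at 5.49 CPM and the other 4 at 107 to 523. Ptgs2 (COX-2), the inducible prostaglandin synthase, was at 2.69 CPM in N1 and 87.2 to 369 in the other 4, against 0.059 to 0.677 (8.87 ± 1.71, adjusted p = 0.00544). The calls of Chil1 and Ptgs2 were lost with limma-voom. Ptgis, the prostacyclin synthase, was higher by 8.38 ± 0.78 (adjusted p = 0.000365).

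S100a4, a calcium-binding protein of motile mesenchymal cells, was at 2555, 531, 483, 475 and 425 CPM against 5.43, 1.18 and 1.41 (8.42 ± 1.16, adjusted p = 0.0015). N1 was the highest here. Ltbp2, a matrix protein of elastic fibres, was at 19.7, 2476, 2352, 3000 and 2627 CPM against 6.3, 6.79 and 5.02 (8.44 ± 1.54, adjusted p = 0.00444), with N1 the lowest by far. Enpp1, a pyrophosphate-producing enzyme, rose by 7.88 ± 0.97 (adjusted p = 0.000983), Nupr1, a stress-response factor, by 8.19 ± 1.26 (adjusted p = 0.00227) and Medag by 7.59 ± 0.55 (adjusted p = 0.000144). Of the most abundant transcripts of the group, Gsn (gelsolin, which severs actin) was at 3087, 4881, 3801, 5827 and 4387 CPM against 234, 195 and 124 (4.58 ± 0.42, adjusted p = 0.00033). Vim, the mesenchymal intermediate filament vimentin, was higher by 2.69 ± 0.33 (adjusted p = 0.000969).

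**Figure D3:**
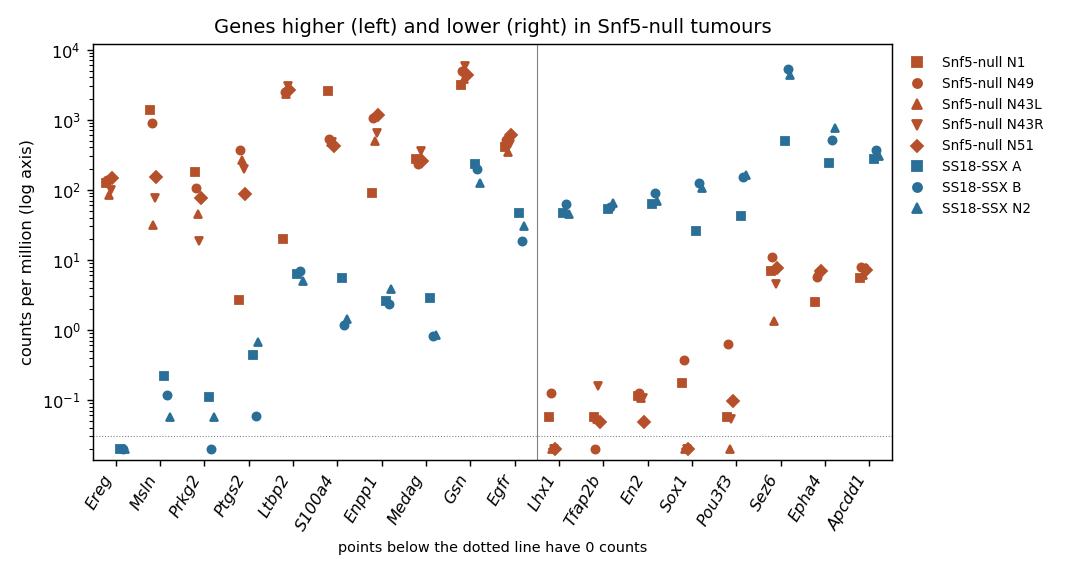
Level of 10 genes that were higher (left of the line) and 8 that were lower (right) in Snf5-null tumours, in CPM on a log axis, 1 point for each library, with libraries at 0 counts drawn below the dotted line. Ereg is at 0 in all 3 SS18-SSX libraries, and N1 (square) lies below the other Snf5-null libraries in Ptgs2, Ltbp2 and Enpp1 and above them in S100a4.

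Matrix genes were higher on balance. Of 29 fibroblast and extracellular matrix genes 16 were higher (55.2%) and 1 lower (3.45%), with a median of 1.53. Lox, which cross-links collagen and elastin, was at 162, 991, 956, 1494 and 1248 CPM against 15.5, 27.4 and 73.2 (4.64 ± 0.87, adjusted p = 0.00483). Mfap5, a microfibril protein, was higher by 4.85 ± 0.45 (adjusted p = 0.000357) and the proteoglycan Lum by 3.76 ± 0.55 (adjusted p = 0.00186). Fbln1, a fibulin, was the exception, lower at 17.7 to 48.4 against 272 to 409 CPM (-3.41 ± 0.32, adjusted p = 0.000377). Col1a2 was at 1177 CPM in N1 and 4402 to 6990 in the other 4, against 944 to 1164 (2.23 ± 0.56, adjusted p = 0.0149), and lost the call without B (2.19, adjusted p = 0.0709) or N2 (2.16, adjusted p = 0.0613). Col3a1 did not pass the test (-0.15 ± 0.40, adjusted p = 0.781). The list's mean level was 6.84 log2 CPM in N1, inside the SS18-SSX range of 6.57 to 7.04, and 8.51 to 9.01 in the other 4. Without N1, 21 of the genes were higher, and without B 6 were.

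Basement membrane genes went the other way, with 7 of 17 lower (41.2%), 0 higher and a median of -1.35. Col4a5, a type IV collagen chain, was at 191, 129, 33, 42.3 and 31.4 CPM against 863, 1741 and 1004 (-3.82 ± 0.67, adjusted p = 0.00378). Lama1, a laminin chain of early epithelia, was lower by -3.94 ± 0.77 (adjusted p = 0.00578). Without B 4 of the genes were lower.

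Of 22 matrix proteases and inhibitors 17 were higher (77.3%) and 2 lower (9.09%), with a median of 2.38. Timp1, a metalloprotease inhibitor, was at 145, 742, 998, 1001 and 777 CPM against 18.7, 7.5 and 7.84 (6.02 ± 0.79, adjusted p = 0.00124). Spp1 (osteopontin), a matrix glycoprotein, was at 1656, 303, 527, 213 and 424 CPM against 6.2, 15.8 and 6.26 (6.05 ± 0.92, adjusted p = 0.00222). N1 was the lowest Snf5-null library for the first and the highest for the second. Mmp12, the macrophage elastase, rose by 6.18 ± 1.26 (adjusted p = 0.00681), and Mmp15, a membrane-bound metalloprotease, fell by 3.65 on the log2 scale (SE 0.30, adjusted p = 0.000227). The call of Mmp12 was lost with limma-voom. The list's mean level was 6.01 to 6.85 log2 CPM in Snf5-null and 3.93 to 4.06 in SS18-SSX libraries.

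Among 10 tested genes of cartilage and bone, 3 rose (30%), 1 fell (10%) and 6 were not called, with a median of -0.27. Col2a1, the cartilage collagen, was at 47.9, 179, 0.27, 0.694 and 0.479 CPM against 1054, 6229 and 2778 (-6.20 ± 2.01, adjusted p = 0.0405). It was lower in 5 of 5 libraries, but its adjusted p was between 0.0529 and 0.112 without N1 (-6.22), N43L (-5.88), N43R (-5.88), N51 (-5.88), B (-5.42) or N2 (-6.33). With N43L and N43R summed it was 0.0561 (-5.88). The cartilage matrix gene Comp was higher, at 18.2, 370, 1021, 1449 and 528 CPM against 14.8, 17.1 and 12.8 (5.51 ± 1.24, adjusted p = 0.0101). The proteoglycan Acan was higher too (4.48 ± 0.86, adjusted p = 0.00527).

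Macrophage and myeloid genes were higher in Snf5-null tumours, in 17 of 18 genes (94.4%, 0 lower), with a median of 3.76. In bulk tumour RNA, more cells of a type and more RNA per cell cannot be told apart. Ctss, the lysosomal protease cathepsin S, was at 1483, 313, 913, 1139 and 762 CPM against 74.1, 16.9 and 17.7 (4.67 ± 0.78, adjusted p = 0.00306). Itgam (CD11b) was higher by 5.60 ± 0.70 (adjusted p = 0.00102) and the scavenger receptor Msr1 by 5.18 ± 0.72 (adjusted p = 0.00158). The list's summed level was 2874 CPM in N49 and 5807 to 11390 in the other Snf5-null libraries, and 978 in A, 252 in B and 251 in N2. A thus held more than B and N2, and 17 genes were higher without A too, with a median of 4.66. Of 5 tested neutrophil genes 3 were higher, with the receptor Csf3r at 3.10 ± 0.44 (adjusted p = 0.00165). Without B or N2 1 was, and Ly6g, a defining neutrophil marker, had at most 0.0623 CPM.

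Osteoclast genes gave 7 of 9 higher (77.8%) and 0 lower, with a median of 5.99, and their level depended on the tumour. Macrophage genes rose too (17 of 18), and which cells held the osteoclast list's transcripts was not tested. Dcstamp, which drives the fusion of osteoclast precursors, was at 24.6, 10.3, 32.1, 31.4 and 92.3 CPM against 0.217, 0 and 0.169 (8.26 ± 1.11, adjusted p = 0.00137). Mmp9 was at 954, 129, 229, 167 and 3666 CPM against 31, 10.2 and 7.5 (5.99 ± 1.52, adjusted p = 0.0161). Ctsk, cathepsin K, was at 896, 111, 185, 152 and 2939 CPM against 82.1, 81.6 and 120 and did not pass the test (3.18 ± 1.21, adjusted p = 0.0679), except without N49 (3.47, adjusted p = 0.0449) and with DESeq2 (adjusted p = 0.00463). Mmp9 and Ctsk were named after their values were seen. N51 was the highest library for all 3 genes. Averaged over the list, the level was 7.93 log2 CPM in N51, 5.65 in N1 and 3.66 to 4.34 in the other 3. Without N51 7 genes were still called, with a median of 4.52. Without B or without N2 2 were called, and among those lost were Ocstamp (6.28 and 6.87), Atp6v0d2 (6.78 and 6.56) and Mmp9 (5.72 and 5.63). With limma-voom or with no low-count filter 3 were called.

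T and NK cell genes gave 4 of 19 higher (21.1%) and 0 lower, with a median of 1.74. The share higher was near the 17.8% of all tested genes. Without A 13 were higher, with a median of 3.51. Without B or N2 1 was, with DESeq2 9 were and with limma-voom 8. With N43L and N43R summed 2 were. Icos, a T cell costimulator, was at 0.972, 2.62, 5.07, 5.92 and 3.12 CPM and had 2 counts in SS18-SSX tumours (adjusted p = 0.00362). Trac, the constant part of the T cell receptor alpha chain, was higher by 3.81 ± 0.92 (adjusted p = 0.0135), though not without B (3.29, adjusted p = 0.0589) or N2 (3.36, adjusted p = 0.0561). Averaged over these genes, the level was 0.82 to 2.22 log2 CPM in Snf5-null libraries, 0.62 in A, -1.58 in B and -1.29 in N2.

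B cell and plasma cell genes turned on library A. Of 9 tested, 0 were higher and 1, Pax5, lower, with a median of -1.05. Without A 5 were higher and 1 lower, with a median of 3.25. Ighm, the IgM heavy chain, named after its values were seen, was at 87.2, 11.8, 87.3, 95.3 and 69.8 CPM against 300 in A, 6.73 in B and 4.74 in N2. It gave -0.56 ± 1.21 (adjusted p = 0.737) with A and 3.61 (adjusted p = 0.0141) without it. Pax5, a B cell transcription factor that the developing midbrain also uses, was lower by -3.63 ± 0.59 (adjusted p = 0.00274), at 0.16 to 0.857 CPM against 5.65, 3.42 and 4.34.

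Of 24 interferon response genes 13 were higher (54.2%) and 0 lower, with a median of 2.0. Ifit2, an interferon-induced RNA-binding protein, was at 122, 94.5, 86, 128 and 96.3 CPM against 9.02, 4.9 and 9.82 (3.73 ± 0.31, adjusted p = 0.000227). Ifit3 was at 88.4, 28.8, 29, 54.5 and 32.7 CPM against 3.15, 0.354 and 1.3 (4.92 ± 0.78, adjusted p = 0.00259). Oas3, a sensor of double-stranded RNA, was at 3.37, 9.96, 9.17, 21.9 and 21.4 CPM against 2.06, 0.472 and 0.621 (3.69 ± 0.82, adjusted p = 0.00956). No SS18-SSX library reached a Snf5-null library in any of the 3 genes. The list's mean level was 4.71 to 5.70 log2 CPM in Snf5-null libraries, 4.06 in A, 2.29 in B and 2.37 in N2. Without A 19 were higher, without B 5, without N2 7 and with A and N1 both left out 23. Of 16 antigen presentation genes 1, B2m, was higher (0.98 ± 0.31, adjusted p = 0.0371), and without A 8 were. DESeq2 called 7 higher, limma-voom 6 and the test without N49 5. With N43L and N43R, which share a tag, summed into 1 sample, 0 of the 16 were called (B2m 0.94, adjusted p = 0.0619). B2m also lost its call without N43L (1.02), N43R (0.86), N51 (0.94), A (0.98) or B (0.74).

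Interferon-induced transcription factors bind a repeated GAAA box, the interferon-stimulated response element. The letters GAAA, any 2 bases and GAAA again, on either strand, were searched in the 250 bases before the start of each gene in RefSeq (GRCm38.p6), as the only motif searched. Of the 13 interferon response genes that were higher, 12 had a promoter in the table. Of these, 9 (75.0%) held at least 1 match, against 3.04% of all 27018 promoters of that table. Of the 24 tested genes of the list, called or not, 19 had a promoter there, and 11 of these (57.9%) held a match. The motif is thus common in the list itself, and whether it goes with the calls was not tested. A match is a description of the letters and not of binding. The 250 bases of Ifit3 (chr19:34583279-34583528, plus strand), with 2 matches, and of Oas3 (chr5:120777660-120777909, minus strand), with 1, are shown 5′ to 3′ because these were the called genes with a match that had the largest rises. Capitals mark the matches, and Ifit2 had none in this window.
Ifit3: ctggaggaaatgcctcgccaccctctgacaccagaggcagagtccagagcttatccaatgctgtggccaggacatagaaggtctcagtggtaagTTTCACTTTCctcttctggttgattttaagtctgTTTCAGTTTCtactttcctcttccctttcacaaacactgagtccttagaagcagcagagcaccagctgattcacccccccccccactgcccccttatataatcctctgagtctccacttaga
Oas3: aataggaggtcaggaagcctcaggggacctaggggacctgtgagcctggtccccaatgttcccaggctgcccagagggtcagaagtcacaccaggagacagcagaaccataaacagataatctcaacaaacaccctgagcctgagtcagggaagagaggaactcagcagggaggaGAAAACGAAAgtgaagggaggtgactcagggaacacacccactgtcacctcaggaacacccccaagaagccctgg

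Of 23 mature skeletal muscle genes 0 passed edgeR's test in either direction, with a median of 1.38. At an unadjusted p below 0.05 there were 0 too, with DESeq2 0 were called and with limma-voom 1 was higher. Without A 10 were higher, with a median of 4.75, and with A and N1 both left out 21 were. Myh4, a fast myosin heavy chain, was at 6.52, 1326, 5593, 2066 and 566 CPM against 2134 in A, 39.9 in B and 32.4 in N2 (1.38 ± 1.79, adjusted p = 0.568). Ttn, the giant sarcomere protein titin, was at 1330 to 8087 CPM against 5769, 240 and 325 (0.81 ± 1.08, adjusted p = 0.58), and at 3.72 (adjusted p = 0.0158) without A. Among 20 early myogenic genes 1 was higher (5%) and 3 lower (15%), both below the shares of all tested genes. The median of this list was 2.10, and it was 4.47 without A and 0.63 without N1. Myf5, a myogenic determination factor named after its values were seen, was at 265 CPM in N1 and at 0.213 to 5.42 in the other 4, with 3 counts in SS18-SSX tumours (adjusted p = 0.0585). Its adjusted p was 0.0471 without N43L and 0.0475 without N43R, and 0.0482 with the 2 summed. The early myogenic list's mean level was 5.22 log2 CPM in N1 and 1.34 to 2.75 in the other 4, while N1 was the lowest of the Snf5-null libraries in the mature list (4.25 against 5.66 to 9.24). Pax7, the satellite cell factor that also marks dorsal neural tube, was lower at 0.324 to 8.86 against 41.8 to 93.5 CPM (-4.18 ± 0.99, adjusted p = 0.0122). Meox1, a somite homeobox factor, was at 6.52, 184, 258, 267 and 268 CPM against 2.72, 5.43 and 6.32 (5.33 ± 1.12, adjusted p = 0.00745), a call lost with limma-voom.

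**Figure D4:**
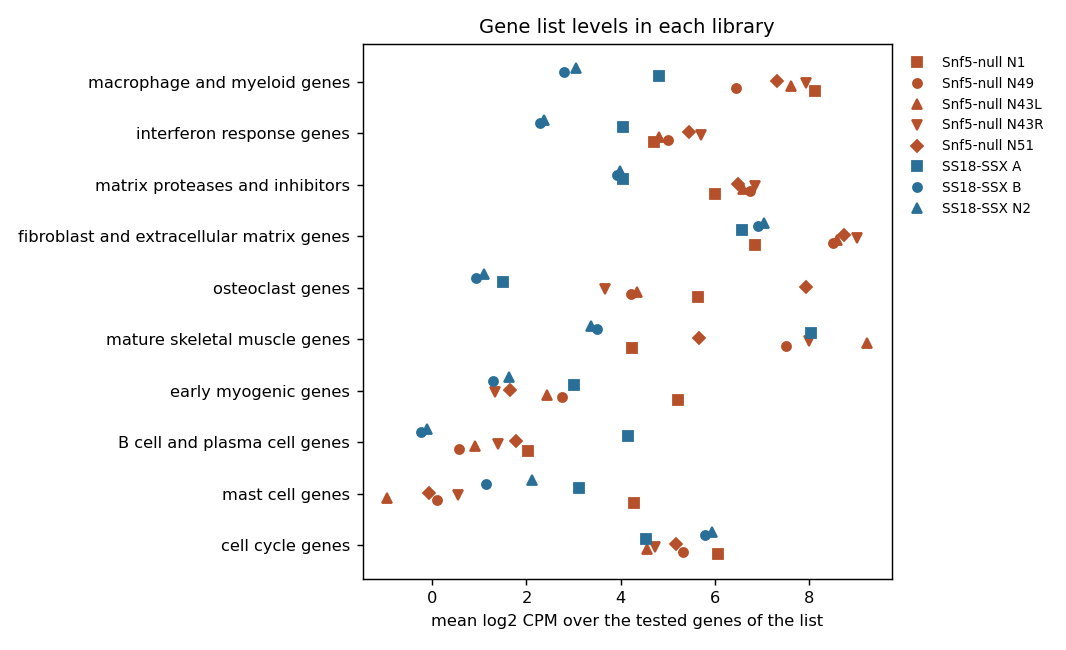
Mean level of the tested genes of 10 lists in each library (log2 CPM, horizontal), with Snf5-null libraries in orange and SS18-SSX libraries in blue, 1 point for each library. The groups are apart for macrophage, interferon response, matrix protease and osteoclast genes. A lies with the Snf5-null libraries for mature muscle genes and above them for B cell genes. N51 is highest for osteoclast genes, and N1 is highest for early myogenic and mast cell genes.

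Cell cycle genes gave 0 calls of 26 in either direction with edgeR, with a median of -0.32. At an unadjusted p below 0.05, 2 were lower, and DESeq2 and limma-voom called 0. Mki67, the proliferation marker, was at 229, 174, 88.5, 124 and 229 CPM against 115, 418 and 650 (-1.22 ± 0.52, adjusted p = 0.0932). Without A, the lowest of the SS18-SSX libraries, it was at -1.67 (adjusted p = 0.0143). Without A 7 of the 26 were lower, and without N1, the highest of the Snf5-null libraries, 2 were. With A and N1 both left out 14 were lower, with a median of -1.04. Of 17 p53 targets and Cdkn2 genes 7 were higher (41.2%) and 1 lower (5.88%), with a median of 0.64. Eda2r, a TNF receptor family member and p53 target, was at 59.3, 51.4, 74, 44.6 and 66.2 CPM against 9.89, 0.945 and 2.09 (3.82 ± 0.73, adjusted p = 0.00539). The groups did not overlap. Gdf15, a stress-induced cytokine, was at 0.498 to 3.49 CPM and had 2 counts in SS18-SSX tumours (adjusted p = 0.0095). Zmat3 was the member that fell (-0.95 ± 0.19, adjusted p = 0.00639). Without B 4 of the 17 were higher.

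Among 16 genes of hypoxia and glycolysis, 11 rose (68.8%) and 0 fell, with a median of 1.57. Eno1, the glycolytic enzyme enolase, was at 140, 158, 100, 68.5 and 86.3 CPM against 36.3, 34.7 and 16.9 (1.92 ± 0.38, adjusted p = 0.00578). Copies of Eno1 in the genome can share its reads, and the sources used here do not give how such reads were counted. Ndrg1, a hypoxia-induced gene, was higher by 1.87 ± 0.45 (adjusted p = 0.013), though not without B (1.69, adjusted p = 0.0684) or N2 (1.63, adjusted p = 0.0584). Without B or without N2 5 of the 16 were higher, with medians of 1.48 and 1.35.

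Schwann cell genes gave 5 of 8 higher and 1 lower. Egr2, a zinc-finger factor that myeloid cells and fibroblasts also express, was at 29.9, 77.9, 82, 63.7 and 69.7 CPM against 5.43, 3.42 and 3.16 (4.02 ± 0.41, adjusted p = 0.000539). Erbb3, the neuregulin receptor, was lower by -3.14 ± 0.39 (adjusted p = 0.000999). Without B or without N2 3 of the 8 were higher. Markers of other cell types the tumours could hold were counted too. There were 1 higher (6.25%) and 2 lower (12.5%) of 16 endothelial genes, 1 and 1 of 11 pericyte genes (9.09% each), 1 and 0 of 9 adipocyte genes (11.1% higher), 2 and 0 of 4 keratinocyte genes (50.0% higher), and 0 of 5 red blood cell and 0 of 7 mast cell genes with edgeR. At an unadjusted p below 0.05, 1 red blood cell gene and 0 mast cell genes were lower and 0 higher. DESeq2 called 1 red blood cell gene lower and limma-voom 0, and neither called a mast cell gene. Without A 6 endothelial genes were lower and 4 adipocyte genes higher. Without N1 5 mast cell genes were lower, and without N49 4 red blood cell genes were. The part of these cell types in the results above was not tested.

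**Figure D5:**
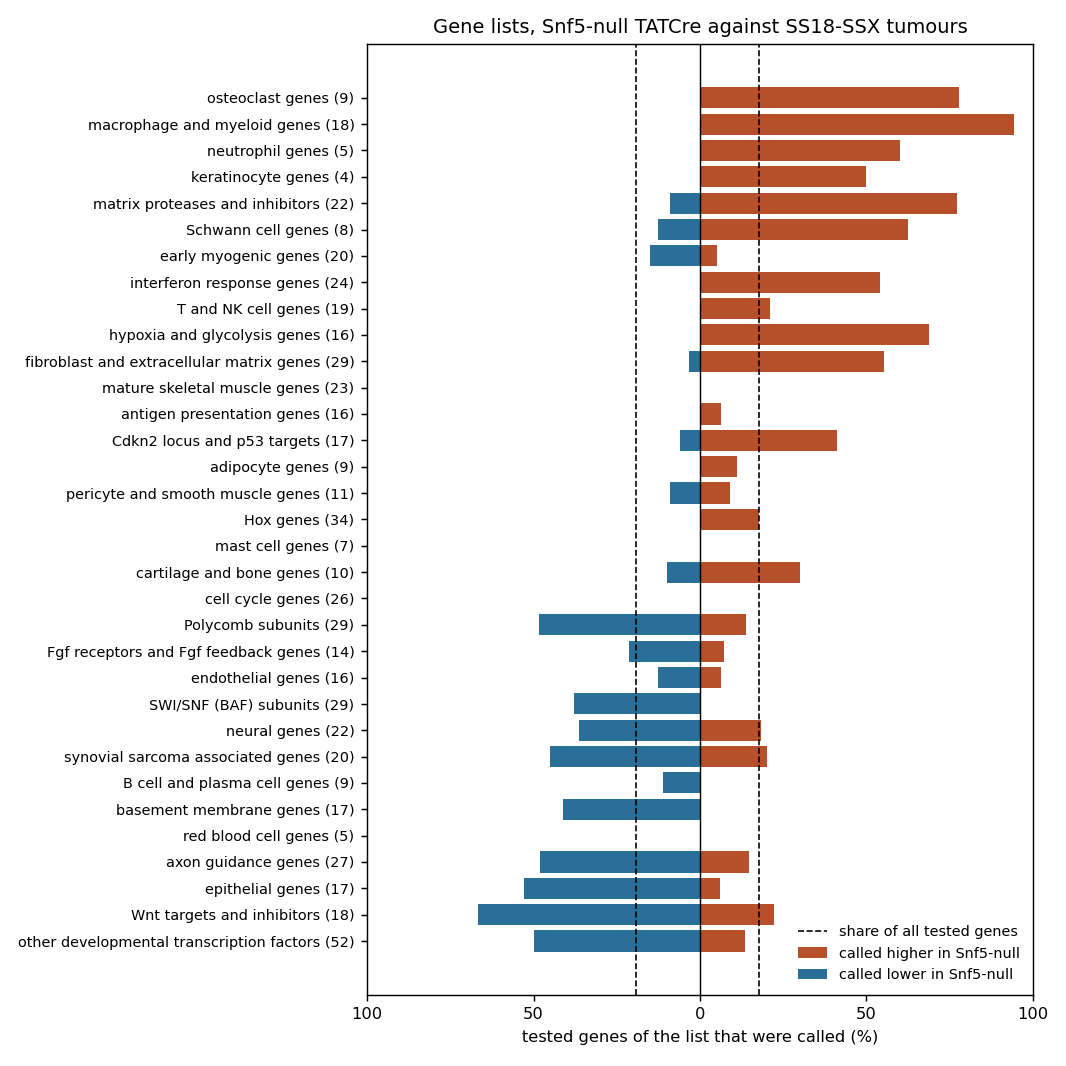
Share of the tested genes of each list, except the sex-linked list and the retained non-coding RNA and histone list, that were called higher (orange, to the right) or lower (blue, to the left) in Snf5-null tumours, in percent, with the number tested in brackets and lists ordered by median log2 fold change. The dashed lines are the shares of all 17059 tested genes, 17.8% and 19.2%. Of the lists drawn, macrophage, osteoclast and matrix protease lists reach furthest right and Wnt, epithelial and developmental factor lists furthest left.

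Within the Snf5-null group single tumours differed by more than the groups did for some genes. Dsc3, a desmosomal cadherin and the gene with the largest spread, was at 0.0571, 879, 30.9, 129 and 72.8 CPM against 0.059 to 0.435. It was called (10.30 ± 2.76, adjusted p = 0.0199) but not without B (9.79, adjusted p = 0.0867) or N2 (10.00, adjusted p = 0.0786), and also not with limma-voom (7.42, adjusted p = 0.413) or with no low-count filter (adjusted p = 0.0806). N1 lay near the limit of detection, as did the SS18-SSX libraries (7 counts in all), so their order is not resolved. The other 4 Snf5-null libraries lay above them. Wif1, a secreted Wnt inhibitor, was at 2.12, 464, 62.9, 13.6 and 803 CPM against 10.4, 81.2 and 92.5, and did not pass the test (2.13 ± 1.64, adjusted p = 0.33).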

How the data were processed

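RNA of fresh frozen tumours was extracted with an RNeasy Mini kit and made into stranded poly(A)-selected libraries (TruSeq Stranded mRNA), per the labels' protocols. The authors deposited whole-number read counts per Ensembl gene, 48440 identifiers in 1 table. The tools named in the submitters' processing notes are cutadapt, STAR 2.7.5a, featureCounts, RSEM and DESeq2, with the build mm10. Their roles and the handling of reads that map to several places are not given in the sources used here. The 14 columns of other tumours were not used. Symbols and coordinates come from GENCODE M21 (GRCm38), with 48058 identifiers matched.

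Genes were kept by edgeR's filterByExpr (minimum count 10, minimum total 15), which left 17059 genes and 99.84% of the counts. Counts were scaled by TMM and the 2 groups compared with edgeR 4.0.16 (R 4.3.3; quasi-likelihood test, Benjamini-Hochberg over all 17059 genes, 6 residual degrees of freedom, no covariate). CPM and log2 CPM (prior count 2) use the TMM-scaled library sizes. A fold against a group at 0 counts uses a floor of 3 counts over the group and, like any such limit, covers counting error only. Library measures were compared by an exact permutation test. DESeq2 1.42.0, limma-voom (limma 3.58.1), other scalings and filters, N43L and N43R summed, and each library left out in turn were alternatives. A and N1 both left out was an alternative chosen after seeing the data. No 2 libraries were duplicates (chi-square per degree of freedom of at least 51.5 for every pair).

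The comparison and the 35 gene lists were chosen with earlier results of these data known. A gene list is described by its calls and its median and was not tested. Genes named come from a rule: SWI/SNF subunits, up to 3 called genes per direction with the largest change in each list (where none was called, the most abundant), the 15 largest changes per direction without overlap and with a mean of at least 5 log2 CPM in the higher group, and the 10 most variable and 10 most abundant genes of each group. Tle1, Ctsk, Mmp9, Ighm and Myf5, and markers at or near 0, fall outside it and were named after their values were seen. Not every gene that the rule selects is described, and one result is not reported here.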

Additional observations from a re-analysis of the deposited data

Results flagged for a closer look

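Within the Snf5-null group, 152 genes and list levels were examined for a library set apart from the other 4 by more than Dixon's 95% critical value of 0.71, and 25 had one. For independent samples chance sets apart a library in about 1 in 20 groups. That rate is no reference for the 25, because some genes were named for their spread within the group. N43L and N43R also share a tag, and genes of one library are not independent of each other. N1 was the library in 19 of the 25, N49 in 3, N51 in 2, N43L in 1 and N43R in 0. Values here are log2 CPM, with the range of the other 4 libraries.

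N1 had the lowest mean over the fibroblast and extracellular matrix list, 6.84 against 8.51 to 9.01, though not the lowest level of every matrix gene. Its level was 7.34 in Lox (others 9.90 to 10.55), 7.18 in Timp1 (9.54 to 9.97), 4.31 in Ltbp2 (11.20 to 11.55) and 10.20 in Col1a2 (12.10 to 12.77). It was also low in Ptgis (7.26, others 9.29 to 9.63), Nupr1 (3.37, others 7.84 to 8.73) and Acan (0.73, others 3.71 to 4.49). Among developmental and signalling genes it was low in Tbx15 (4.66), Tbx18 (1.0), Meox1 (2.73), Dkk1 (-2.51), Epha4 (1.40), Egr2 (4.91) and Smarca2 (5.21). N1 was high in the mast cell list, at 4.29 against -0.97 to 0.54, and in S100a4 (11.32), Slit1 (4.38) and Nkd1 (2.41).

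N49 was high in the epithelial genes Dsp (1.75, others -1.58 to -0.80) and Esrp1 (-0.85) and low in Ighm (3.58, others 6.13 to 6.58). N51 was high in Vim (12.43) and low in En2 (-2.59), a gene with 1 count there. N43L was high in Dkk2 (7.81, others 6.17 to 6.49).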

How the results depend on the processing

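The number of genes higher in Snf5-null tumours was 1425 to 3483 and of genes lower 2102 to 3725 when 1 library at a time was left out, with the lowest counts without SS18-SSX library B (1425 and 2102) and the highest without N1. For changes of at least 1 log2 unit the ranges were 1266 to 2583 higher and 1920 to 2916 lower. Without B, 54.8% of the calls were made again, and without N2 69.7%. Both counts of called genes stayed within 1.5 times under TMM's alternatives (RLE 3053 and 3261, upper quartile 2793 and 3593), no low-count filter (2608 and 3055), a stricter one (2803 and 3099), DESeq2 (3967 and 4103) and limma-voom (2824 and 3422). With A and N1 both left out they were 4114 and 4269. Of 114 genes described 104 were called, and 80 of these lost the call in none of the alternatives in which they were tested (109 of the 114 were tested under the stricter filter, 111 with DESeq2 and at least 113 in the others). With limma-voom 11 lost it (Meox2, Crabp1, Tbx18, Dkk1, Mmp12, Chil1, Ptgs2, Ocstamp, Atp6v0d2, Meox1 and Dsc3), with no low-count filter 10 and with N43L and N43R summed 3 (Grin2c, Col2a1 and B2m). Ighm was at -1.15 to 3.61 with 1 library left out, of which it was called, with the opposite sign, without A alone. It was also called at 3.54 with A and N1 both left out, and limma-voom gave 1.91 with no call. Ss18 (0.11 without N2) and Col3a1 (0.20 without B) also crossed 0 and were not called in any alternative. No paired analysis was possible because the groups share no replicate numbers. With 3 SS18-SSX libraries, 1 of them at 8642648 counts, leaving out 1 leaves 2, and differences in genes near the detection limit rest on few counts in 1 group. The genotype cannot be told apart from the number series or from the Cre label.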
